A study of Mus musculus with 6 samples.

Results

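The 10 genes described here encode neuropeptides by which the hypothalamus controls feeding and body weight: Npy, Pomc, Cartpt, Agrp, Hcrt, Pmch, Ghrh, Trh, Crh and Gal. They were taken by symbol from the 35850 genes listed in RNA sequencing of mouse optic nerve. The obesogenic group holds 3 libraries from mice on the purified diet AIN-76A, in which fat supplied 58% of energy and to which sucrose was added, and the control group holds 3 libraries from mice on PicoLab 5053. The series title calls the exposure maternal. All mice were 6 weeks old and of the genotype GFAP-Cre; Nf1-Flox/R681X: they carried one floxed Nf1 allele and one with the R681X mutation, and a Cre recombinase under the GFAP promoter, which is active in astrocytes and in glial progenitors. Nf1 encodes neurofibromin, which restrains RAS, and mice of this kind serve as a model of optic glioma. Both diets share this genotype, so no library comes from a wild-type nerve. The labels do not say whether a library is 1 animal or whether animals shared a litter, so the p-values below measure the spread between libraries, which may be technical. The genes were chosen with their levels on both diets known. Their diet differences are therefore given as a description, without a test.

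In the arcuate nucleus of the hypothalamus, neurons that make neuropeptide Y (Npy) and agouti-related peptide (Agrp) stimulate feeding. Neighbouring neurons that make pro-opiomelanocortin (Pomc) and the CART peptide (Cartpt) suppress it. The lateral hypothalamus holds neurons that make hypocretin, also called orexin (Hcrt), which promotes arousal and feeding, and neurons that make melanin-concentrating hormone (Pmch), which promotes feeding. The optic nerve itself is made of the axons of retinal ganglion cells with glia, vessels and a meningeal sheath, and neuronal cell bodies are not a regular part of it. The nerves meet at the chiasm, which lies against the base of the hypothalamus.

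Values are TPM, transcript shares corrected for transcript length and scaled to a fixed total, so levels of different genes can be compared within a library. The 6 libraries carried the transcripts of optic nerve glia. The myelin gene Mbp stood at 31354, 15014 and 15835 TPM in obesogenic libraries 1, 2 and 3, against 38552, 38441 and 41162 TPM in control libraries 1, 2 and 3. Pou4f1, Pou4f2 and Pou4f3, transcription factors of retinal ganglion cell bodies, were at or below 0.592 TPM in every library. Obesogenic library 2 stood apart: 20.6% of the TPM listed there belonged to immunoglobulin genes, a share that did not exceed 0.0439% in the other 5 libraries. Since TPM add up to a fixed total, the remaining genes of that library are scaled down. Over all genes, limma's moderated test called 1 of 14364 genes at an adjusted p under 0.05, which is 0.00696%. An unadjusted p under 0.05 was reached by 1575 genes, or 11.0%. The gene called, Gm9836, is annotated as a predicted pseudogene and is named because it is the only one. It passed in the lower direction (limma adjusted p = 0.0204), being listed at 0 in every obesogenic library and at 32.1, 17.8 and 22.1 TPM in the control libraries. The call was lost in 5 of the 6 fits that leave out 1 library, where its adjusted p ran up to 0.219, and was kept without obesogenic library 2 (limma adjusted p = 0.0137). Leaving out obesogenic library 2 raised the calls to 735 genes higher, or 5.12% of those tested, and 179 lower, or 1.25%. Counts of listed genes that passed without that library stand against these shares.

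Npy and Pomc transcripts were abundant in the obesogenic libraries and scarce in the controls. Summed over all 10 genes, feeding peptide transcripts reached 879, 169 and 1814 TPM in obesogenic libraries 1, 2 and 3, against 36.4, 18.6 and 43.0 TPM in control libraries 1, 2 and 3. The mean was 954 ± 825 TPM in obesogenic libraries and 32.7 ± 12.6 TPM in controls (SD, n = 3 each). In 6 of the 10 genes (Npy, Pomc, Cartpt, Ghrh, Trh and Gal), every obesogenic library was above every control library. The same held for 7.49% of the 21736 genes with any value above 0, and for 8.88% of the 14364 genes tested. The filter of at least 1 TPM in at least 3 libraries was passed by 8 of the 10 genes. Agrp and Crh did not pass, and Ghrh passed only through the obesogenic libraries. Hcrt and Pmch also needed obesogenic libraries to pass. Among the controls they reached 1 TPM only in control library 2, at 1.54 and 1.17 TPM. Agrp enters the sum and these counts by Agrp-202 and Agrp-203 only. Since the diet difference chose the genes, nothing is read from these shares.

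**Figure D1:**
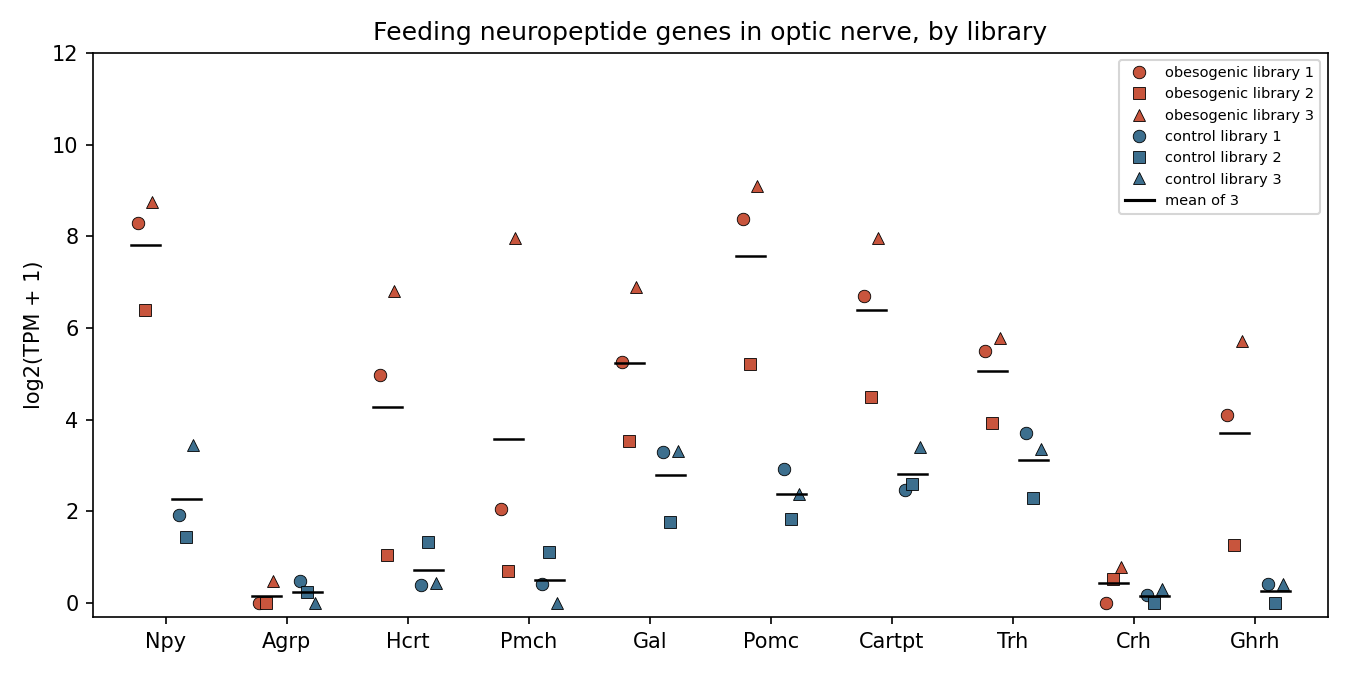
Level of each feeding peptide gene on a log2(TPM + 1) scale in the 3 obesogenic libraries (red, left) and the 3 control libraries (blue, right), with black bars for the mean of 3. Npy reached 83.1 to 430.5 TPM in obesogenic libraries, while Agrp and Crh stayed below 1 TPM in all 6 libraries. Agrp was counted from Agrp-202 and Agrp-203 only.

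Npy (ENSMUSG00000029819), the most abundant appetite-stimulating peptide of the arcuate nucleus, measured 312, 83.1 and 430.5 TPM in obesogenic libraries 1, 2 and 3, against 2.77, 1.73 and 9.97 TPM in control libraries 1, 2 and 3. The groups were far apart, and the lowest obesogenic library was 8.33 times the highest control library. As a difference of log2(TPM + 1), this was 5.54. Adding 1 TPM shrinks such differences for genes of low level. In bulk tissue, more cells that express a gene and more RNA per cell cannot be told apart.

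Pomc (ENSMUSG00000020660) encodes the precursor of the appetite-suppressing melanocortin peptides and of ACTH. It measured 332, 35.9 and 547 TPM in obesogenic libraries 1, 2 and 3, against 6.63, 2.57 and 4.22 TPM in the control libraries. The groups did not overlap, and the lowest obesogenic library was 5.42 times the highest control. Obesogenic library 2 was further below obesogenic library 1 in Pomc, by 9.24 times, than in Npy, by 3.75 times. It was 8.03 times the control mean in Pomc and 17.2 times in Npy. Obesogenic libraries 1 and 3 were 74.3 and 122 times the control mean in Pomc and 64.6 and 89.3 times in Npy.

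The deposited table lists several transcripts of Pomc. Pomc-201 and Pomc-202, which share a coding sequence in their annotation and differ in untranslated sequence, carried nearly all of it. Pomc-201 made up 43.9%, 47.9% and 42.5% of Pomc TPM in obesogenic libraries 1, 2 and 3, against 27.8% in control library 1, and it was listed at 0 in control libraries 2 and 3. At the low control levels, and between transcripts so alike, such a split is uncertain.

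The sequences just before the start sites of Npy and Pomc are shown because, of the 10 genes, these had the largest diet differences on the log2(TPM + 1) scale. The letters are RefSeq's for GRCm38.p6, 250 bases 5′ to 3′ ending at the base before the start. Capitals mark 3 motifs, each searched on both strands, with overlapping matches merged. The first is TATAA, the core of a TATA box. The next is TGACG, the core of cAMP response elements. The last is TTCNNNGAA, the form of a STAT site.
Npy (chr6:49822460-49822709, plus strand): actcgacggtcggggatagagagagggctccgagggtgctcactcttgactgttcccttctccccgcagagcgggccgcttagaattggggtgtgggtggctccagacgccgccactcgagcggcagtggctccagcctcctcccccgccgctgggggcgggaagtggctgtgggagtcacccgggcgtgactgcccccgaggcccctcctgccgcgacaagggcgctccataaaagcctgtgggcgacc
Pomc (chr12:3954695-3954944, plus strand): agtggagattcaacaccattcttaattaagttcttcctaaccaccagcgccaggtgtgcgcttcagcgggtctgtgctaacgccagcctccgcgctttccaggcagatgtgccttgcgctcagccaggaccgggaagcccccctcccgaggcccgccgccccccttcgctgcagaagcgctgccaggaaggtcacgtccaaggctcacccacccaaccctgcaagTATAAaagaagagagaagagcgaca
The Pomc window held TATAA 25 bases before the start, a position typical of a TATA box, and neither of the other motifs. The Npy window held none of the 3 motifs, which says only that these letters are not in it. Of 32851 windows of the same length before RefSeq start sites, 22.8% held TATAA, 17.8% held TGACG and 7.02% held TTCNNNGAA. RefSeq windows were at hand for 8 of the 10 genes, 9 windows in all since Ghrh has 2, and TATAA occurred in 6 of the 9, TGACG in 4 and the STAT form in 1, that of Pmch.

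Cartpt (ENSMUSG00000021647), which encodes the CART peptides co-made with Pomc in the arcuate nucleus, measured 104, 21.6 and 248 TPM in obesogenic libraries 1, 2 and 3. The control libraries 1, 2 and 3 held 4.52, 5.05 and 9.58 TPM. The groups did not overlap, and the log2 difference was 3.57. Cartpt was measured as 2 transcripts that differ by a coding segment of 39 bases, present in Cartpt-201 and spliced out of Cartpt-202. The segment, from GENCODE M21 transcripts on GRCm38, is shown in lower case because it separates the long from the short CART precursor.
Cartpt-201 segment (chr13:99900041-99900079, minus strand): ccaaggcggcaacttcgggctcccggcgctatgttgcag
The long form made up 56.8%, 64.5% and 59.4% of Cartpt TPM in obesogenic libraries 1, 2 and 3, against 64.6%, 51.5% and 75.6% in control libraries 1, 2 and 3. These ranges overlap, so the mix of long and short precursor did not separate the diets. At the low control levels such a split is uncertain.

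Agrp (ENSMUSG00000005705), which arcuate Npy neurons normally make together with Npy, was almost absent from the values analysed. It was listed at 0, 0 and 0.401 TPM in obesogenic libraries 1, 2 and 3, against 0.396, 0.177 and 0 TPM in control libraries 1, 2 and 3. The groups overlapped. These values come from the transcripts Agrp-202 and Agrp-203 only. Agrp-201 is missing from the deposited values, so those used here are not the level of the whole gene.

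The lateral hypothalamic peptides were high in some obesogenic libraries only. Hcrt (ENSMUSG00000045471) measured 30.5, 1.07 and 111 TPM in obesogenic libraries 1, 2 and 3, against 0.313, 1.54 and 0.358 TPM in the control libraries. Obesogenic library 2 lay within the control range. Pmch (ENSMUSG00000035383) measured 3.18, 0.636 and 250.3 TPM in obesogenic libraries 1, 2 and 3, against 0.345, 1.17 and 0 TPM in the control libraries. Pmch was thus high in obesogenic library 3 alone, at 78.7 times the value of obesogenic library 1, where Hcrt differed by 3.64 times and Npy by 1.38 times between the same libraries.

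Gal (ENSMUSG00000024907) encodes galanin, a peptide of many hypothalamic neurons that can stimulate feeding. It measured 37.2, 10.7 and 119 TPM in obesogenic libraries 1, 2 and 3, against 8.87, 2.39 and 9.02 TPM in the control libraries. The groups did not overlap, but the lowest obesogenic library was only 1.18 times the highest control. Gal-202 carried all or nearly all of the gene, from 94.9% to 100% of its TPM in the obesogenic libraries and from 88.2% to 100% in the controls.

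The releasing hormones act on the pituitary. Trh (ENSMUSG00000005892), made by neurons that drive the thyroid axis and also lower food intake, measured 44.4, 14.1 and 54.5 TPM in obesogenic libraries 1, 2 and 3, against 12.1, 3.94 and 9.26 TPM in the control libraries. The groups did not overlap, with obesogenic library 2 at 1.17 times the highest control. Its log2 difference of 1.95 was the smallest of the 8 genes that passed the filter. Crh (ENSMUSG00000049796), the corticotropin releasing hormone of the stress axis, was listed at 0, 0.448 and 0.738 TPM in obesogenic libraries 1, 2 and 3, against 0.136, 0 and 0.245 TPM in the controls, which overlap.

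Ghrh (ENSMUSG00000027643), the growth hormone releasing hormone of the arcuate nucleus, measured 16.2, 1.42 and 52.0 TPM in obesogenic libraries 1, 2 and 3, against 0.329, 0 and 0.333 TPM in the control libraries. The groups did not overlap. Ghrh has transcripts with different first exons, and obesogenic libraries 1 and 3 differed in which was listed. Ghrh-201 was at 8.22 TPM in obesogenic library 1 and listed at 0 in the other 5 libraries. Ghrh-202 was at 8.02, 1.42 and 52.0 TPM in obesogenic libraries 1, 2 and 3, against 0.329, 0 and 0.333 TPM in the controls. The windows before both RefSeq starts of Ghrh are shown, with the source and the capitals as for Npy and Pomc, because its transcripts differ in their first exons. The match of each RefSeq start to a transcript was not tested, so the transcript names on the windows are provisional.
Ghrh-202 start (chr2:157337427-157337676, minus strand): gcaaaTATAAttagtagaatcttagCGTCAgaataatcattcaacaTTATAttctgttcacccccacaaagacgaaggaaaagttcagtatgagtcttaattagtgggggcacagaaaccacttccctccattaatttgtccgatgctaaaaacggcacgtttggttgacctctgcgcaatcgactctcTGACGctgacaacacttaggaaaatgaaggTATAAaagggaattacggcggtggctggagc
Ghrh-201 start (chr2:157346656-157346905, minus strand): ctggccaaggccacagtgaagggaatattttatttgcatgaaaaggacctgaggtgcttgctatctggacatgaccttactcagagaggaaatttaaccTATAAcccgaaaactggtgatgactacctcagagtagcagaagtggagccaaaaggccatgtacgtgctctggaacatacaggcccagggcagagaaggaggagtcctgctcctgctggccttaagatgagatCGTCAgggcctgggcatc
Before the start labelled Ghrh-202, the nearest TATAA lay 31 bases upstream. Before the start labelled Ghrh-201, the nearest lay 151 bases upstream.

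The order of the libraries was shared. In 8 of the 10 genes, all but Agrp and Crh, obesogenic library 3 was highest, library 1 next and library 2 lowest among the obesogenic libraries. Obesogenic library 3 was above every control in all 10 genes, library 1 in 8 and library 2 in 7. In Agrp this rested on 0.401 TPM of Agrp-203 in obesogenic library 3, against 0.396 TPM of Agrp-202 in control library 1. The shares of all genes for single libraries were not computed, and the diet difference chose the genes, so nothing is read from these counts. By mean level in the obesogenic libraries, the order was Pomc, Npy, Cartpt, Pmch, Gal, Hcrt, Trh, Ghrh, Crh and Agrp. Neighbours in this order had overlapping ranges except Ghrh and Crh. In the controls the order was Trh, Gal, Cartpt, Npy, Pomc, Hcrt, Pmch, Ghrh, Agrp and Crh, and the ranges of neighbours overlapped except those of Pomc and Hcrt. Agrp was placed by Agrp-202 and Agrp-203 only.

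The make-up of the feeding peptide transcripts also differed between libraries. Shares of the summed TPM of the 10 genes do not depend on how a library is scaled. Npy, Pomc and Cartpt together made up 85.0%, 83.2% and 67.6% in obesogenic libraries 1, 2 and 3, against 38.2%, 50.4% and 55.3% in control libraries 1, 2 and 3. The ranges did not overlap. Npy, Pomc and Cartpt had the largest log2 diet differences of the 10 genes, so this gap restates those differences and nothing more is read from it. Trh made up 5.05%, 8.36% and 3.00% in obesogenic libraries, against 33.3%, 21.2% and 21.5% in controls. Its TPM was nonetheless higher in every obesogenic library, so its lower share reflects the larger differences of other genes in the sum. Hcrt and Pmch together made up 3.83%, 1.01% and 19.9% in obesogenic libraries, against 1.81%, 14.6% and 0.834% in controls, so obesogenic library 3 stood out within its group. The appetite-stimulating peptides (Npy, Agrp, Hcrt, Pmch and Gal) summed to 0.797, 1.32 and 1.07 times the appetite-suppressing ones (Pomc, Cartpt, Crh and Trh) in obesogenic libraries 1, 2 and 3, against 0.542, 0.607 and 0.831 times in the controls. These ratios overlapped between the diets. Agrp enters them, as it does the shares, by Agrp-202 and Agrp-203 only, so they do not cover the whole gene. Within the arcuate peptides, the ratio of Npy to Pomc was 0.939, 2.31 and 0.787 in obesogenic libraries, against 0.417, 0.675 and 2.36 in controls. Neither peptide was the more abundant in all libraries of a diet.

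**Figure D2:**
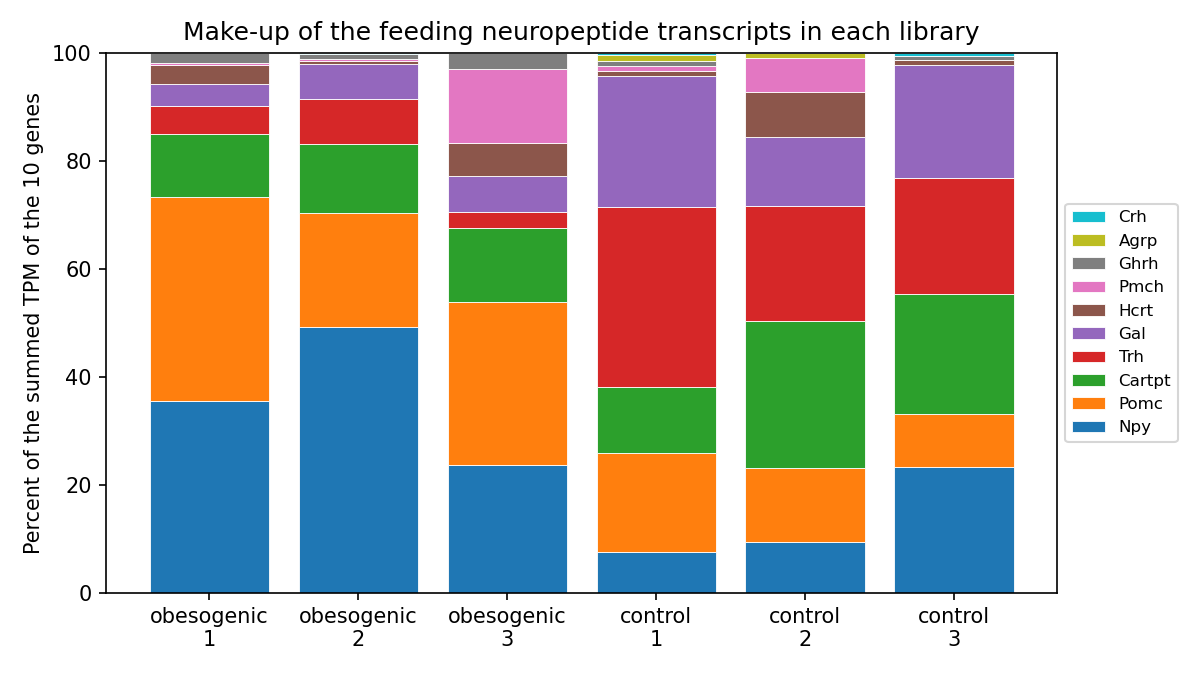
Share of each gene in the summed TPM of the 10 feeding peptide genes, as stacked percentages for each obesogenic and control library. Npy, Pomc and Cartpt filled 67.6% to 85.0% of the bar in obesogenic libraries and 38.2% to 55.3% in controls, and Pmch filled 13.8% in obesogenic library 3.

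General neuronal transcripts were highest in the same libraries. Of 13 neuronal genes listed, all 13 had a higher mean log2 level in obesogenic libraries and in 7 every obesogenic library was above every control, beside 8.88% of all genes tested, but 0 passed limma's test over all genes (lowest adjusted p = 0.237, with 10 at an unadjusted p under 0.05). In obesogenic libraries 1, 2 and 3, Snap25, which encodes a SNARE protein of nerve endings, stood at 45.9, 10.1 and 90.2 TPM, against 4.65, 2.22 and 7.84 TPM in the controls. The GABA-synthesising enzyme Gad2 measured 58.8, 11.8 and 61.1 TPM in obesogenic libraries, against 6.12, 1.80 and 4.34 TPM in controls. The summed level of the 13 genes ran from 201 to 1101 TPM in obesogenic libraries and from 75.8 to 153 TPM in controls. Its part in the feeding peptide levels was not tested. Without obesogenic library 2, 9 of the 13 passed in the higher direction, beside 5.12% of all genes tested, and 4 of these 9 were at 1 TPM or more in all 3 controls.

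Set against Snap25 in the same library, Npy, Pomc and Ghrh were still above all controls. The ratio to Snap25 was chosen after the values were seen, and the outcome depends on the neuronal gene used. With Gad1 or Syt1, also in the neuronal list, as the divisor, the diets overlap in Npy, Pomc and Ghrh. Both were low in control libraries 2 and 3, at 0.263 and 0.816 TPM for Gad1 and 0.376 and 0.176 TPM for Syt1. Npy was 6.79, 8.21 and 4.77 times Snap25 in obesogenic libraries 1, 2 and 3, against 0.595, 0.780 and 1.27 times in control libraries 1, 2 and 3. Pomc was 5.62 ± 1.88 times Snap25 in obesogenic libraries and 1.04 ± 0.455 times in controls (SD, n = 3 each), with no overlap. Ghrh was 0.354, 0.141 and 0.576 times Snap25 in obesogenic libraries, against 0.0709, 0 and 0.0425 times in controls. These 3 of the 10 genes were above all controls in this ratio, as were 0.167% of the 14364 genes tested, and nothing is read from that share since the diet difference chose the genes. Cartpt, Gal, Trh, Hcrt and Pmch overlapped between the diets once divided by Snap25. Trh was 0.989 ± 0.397 times Snap25 in obesogenic libraries and 1.85 ± 0.718 times in controls (SD, n = 3 each).

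Gad2 as the divisor gave the same 3 genes above all controls, against 0.0905% of genes tested. Nothing is read from that share either. The diet difference chose the genes, and Gad2 was itself higher in every obesogenic library, which lowers this ratio for most genes. Npy was 5.30, 7.04 and 7.05 times Gad2 in obesogenic libraries 1, 2 and 3, against 0.452, 0.960 and 2.30 times in controls. Trh was 0.755, 1.2 and 0.892 times Gad2 in obesogenic libraries, against 1.98, 2.18 and 2.13 times in controls. Trh was thus below all controls in this ratio, as were 83.4% of the genes tested.

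**Figure D3:**
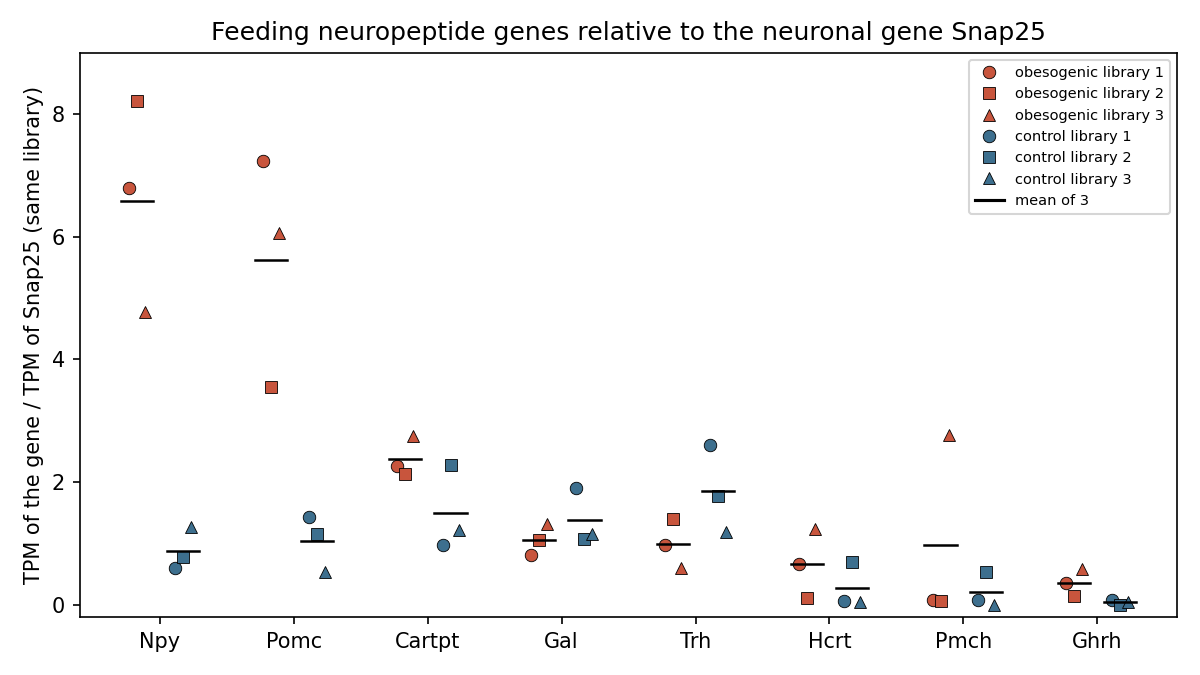
TPM of 8 feeding peptide genes divided by the TPM of Snap25 in the same library, for obesogenic (red, left) and control (blue, right) libraries, with black bars for the mean of 3. Npy lay at 4.77 to 8.21 in obesogenic libraries and 0.595 to 1.27 in controls, whereas the libraries of Gal and Trh overlap.

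Most receptors of these peptides were too low to be tested. Of 20 receptor and partner genes listed, 5 passed the filter and 0 passed the test (limma, lowest adjusted p = 0.283, with 3 at an unadjusted p under 0.05). Their median log2 change was 1.62, beside 0.0785 over all genes tested. Genes such as Npy2r and Mchr1 reached 1 TPM in the obesogenic libraries only and passed the filter through them, so the medians of this and the later lists only describe the genes tested. In 8 of the 20 every obesogenic library was above every control, beside 7.49% of all genes with any value. Npy2r, a presynaptic receptor of neuropeptide Y, measured 10.8, 1.76 and 18.4 TPM in obesogenic libraries 1, 2 and 3, against 0.302, 0.413 and 0.462 TPM in controls (log2 change 2.62, SE 0.69, limma adjusted p = 0.283). Mrap2, a partner of the melanocortin-4 receptor, measured 18.8, 1.41 and 15.9 TPM in obesogenic libraries, against 1.25, 0.898 and 0 TPM in controls (limma adjusted p = 0.366). Without obesogenic library 2, Npy2r and Mrap2 had a limma adjusted p of 0.0178 and 0.0196. Neither was at 1 TPM or more in all 3 controls, so both met the filter through the libraries in which they were high, and these p-values are not read as support. Mchr1, the receptor of melanin-concentrating hormone, measured 3.02, 1.61 and 13 TPM in obesogenic libraries, against 0.743, 0.797 and 0.621 TPM in controls (limma adjusted p = 0.42). Mc5r, a melanocortin receptor of glands and other peripheral tissues, measured 2.29, 1.10 and 1.24 TPM in obesogenic libraries, against 1.44, 3.09 and 2.45 TPM in controls (limma adjusted p = 0.752). Mc3r, a melanocortin receptor of arcuate neurons named after its values were seen, did not pass the filter and was at 3.08, 0.770 and 12 TPM in obesogenic libraries, while it was listed at 0 in all 3 controls. Npy1r, the main postsynaptic receptor of neuropeptide Y and likewise named after its values were seen, was present on both diets, at 9.80, 3.08 and 19.4 TPM in obesogenic libraries and 8.57, 8.03 and 10.6 TPM in controls (limma adjusted p = 0.982). Its groups overlapped.

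Genes by which feeding neurons sense hormones did not all go in the same direction. Of 9 listed, 7 were tested and 0 passed (limma, lowest adjusted p = 0.236, with 2 at an unadjusted p under 0.05), with a median log2 change of 0.19. A higher mean log2 level in obesogenic libraries was found in 5 of the 7. In 3 of the 9 every obesogenic library was above every control, beside 7.49% of all genes with any value. In 1 of the 9, Lepr, every obesogenic library was below every control. Lepr, the leptin receptor, which cells other than neurons also express, measured 20.4, 9.13 and 7.91 TPM in obesogenic libraries, against 26.9, 29.6 and 33.4 TPM in controls (limma adjusted p = 0.297). Glp1r, the receptor of the satiety hormone GLP-1, measured 4.88, 2.16 and 6.92 TPM in obesogenic libraries, against 0.694, 0.354 and 0.371 TPM in controls (limma adjusted p = 0.236). These receptors lay on opposite sides: each obesogenic library was below the controls in Lepr and above them in Glp1r. Glp1r was the only one of the 7 to pass without obesogenic library 2 (limma adjusted p = 0.0252), and it too met the filter through the obesogenic libraries. Socs3, a feedback inhibitor of leptin and cytokine signalling, measured 8.31, 39.6 and 6.44 TPM in obesogenic libraries, against 5.96, 8.05 and 7.09 TPM in controls, highest in the library rich in immunoglobulin (limma adjusted p = 0.685). Ptpn1, a phosphatase that dampens leptin and insulin receptors, measured 34.8, 58.3 and 31.2 TPM in obesogenic libraries, against 25.5, 30.9 and 28.4 TPM in controls (limma adjusted p = 0.558).

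Enzymes and granule proteins that turn precursors into peptides were also higher on average in obesogenic libraries. All 13 listed genes were tested and all 13 had a higher mean log2 level there, but 0 passed (limma, lowest adjusted p = 0.206, with 5 at an unadjusted p under 0.05). The median log2 change was 1.03. Pcsk1, the convertase that makes the first cuts in pro-opiomelanocortin, measured 16.8, 3.56 and 24.5 TPM in obesogenic libraries, against 1.03, 0.304 and 1.62 TPM in controls (limma adjusted p = 0.258). Pcsk2, which cuts further towards the melanocyte-stimulating hormones, measured 27.7, 5.83 and 45.4 TPM in obesogenic libraries, against 3.53, 2.74 and 5.72 TPM in controls (limma adjusted p = 0.365). Vgf, a granule protein, had the lowest adjusted p of the list, at 193, 46.3 and 238 TPM in obesogenic libraries and 14.8, 6.24 and 19.1 TPM in controls. The granule protein Scg2 measured 418, 70.9 and 543 TPM in obesogenic libraries, against 68.9, 11.5 and 33.7 TPM in controls (limma adjusted p = 0.327). In 5 of the 13 every obesogenic library was above every control, beside 8.88% of all genes tested. Without obesogenic library 2, 6 of the 13 passed in the higher direction, beside 5.12% of all genes tested, these 4 among them. Of these 6, 5 were at 1 TPM or more in all 3 controls, and Pcsk1 was not.

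Transcription factors that specify hypothalamic neurons were likewise lowest in obesogenic library 2 among the obesogenic libraries, for each of the 4 described. Of 15 listed, 6 were tested and 0 passed (limma, lowest adjusted p = 0.342, with 4 at an unadjusted p under 0.05). The median log2 change of the 6 was 1.81, and in 8 of the 15 every obesogenic library was above every control, beside 7.49% of all genes with any value. Rax, a factor of hypothalamic progenitors and tanycytes, measured 18.1, 3.41 and 19.8 TPM in obesogenic libraries, against 3.19, 1.47 and 1.38 TPM in controls (limma adjusted p = 0.342). Dlx1, a factor of inhibitory neurons, measured 6.86, 3.18 and 20.2 TPM in obesogenic libraries, against 2.07, 0.469 and 1.59 TPM in controls (limma adjusted p = 0.359). Isl1, needed for Pomc expression in arcuate neurons, measured 8.20, 0.896 and 4.79 TPM in obesogenic libraries, against 1.23, 0.0864 and 0 TPM in controls (limma adjusted p = 0.407). Nkx2-1, a factor of the ventral hypothalamus, measured 10.5, 3.54 and 35.0 TPM in obesogenic libraries, against 2.66, 4.0 and 1.35 TPM in controls (limma adjusted p = 0.437). Isl1 and Nkx2-1 overlapped between the diets through obesogenic library 2. Without that library 5 of the 6 passed in the higher direction, beside 5.12% of all genes tested, and 3 of these 5 were at 1 TPM or more in all 3 controls. The summed level of the 15 genes was 107, 22.3 and 160 TPM in obesogenic libraries 1, 2 and 3, against 25.0, 19.4 and 17.3 TPM in controls. Its part in the levels of the feeding peptides was not tested.

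Most other hypothalamic peptides were listed above 0 on both diets, while Pdyn, the dynorphin precursor gene, named after its values were seen, was at 0.322, 3.36 and 1.22 TPM in obesogenic libraries and listed at 0 in all 3 controls. Of 18 listed, 14 were tested and 0 passed (limma, lowest adjusted p = 0.236, with 6 at an unadjusted p under 0.05). Their median log2 change was 1.98. In 7 of the 18 every obesogenic library was above every control, beside 7.49% of all genes with any value. With obesogenic library 2 left out 5 of the 14 passed as higher, beside 5.12% of all genes tested. Of these 5, 3 were at 1 TPM or more in all 3 controls, while Sst and Adcyap1 met the filter through the obesogenic libraries. Sst, which encodes somatostatin, measured 114, 14.0 and 429 TPM in obesogenic libraries, against 1.31, 0 and 4.40 TPM in controls (limma adjusted p = 0.236). Penk, the enkephalin precursor gene, measured 47.7, 24.1 and 127 TPM in obesogenic libraries, against 12.4, 9.83 and 16.0 TPM in controls (limma adjusted p = 0.302). Kiss1, the kisspeptin gene, measured 2.64, 1.64 and 15.4 TPM in obesogenic libraries, against 0, 0.481 and 0 TPM in controls (limma adjusted p = 0.341). Oxt, the oxytocin gene, was substantial in controls as well, at 702, 202 and 559 TPM in obesogenic libraries and 156, 50.2 and 130.4 TPM in controls (limma adjusted p = 0.298). Avp, the vasopressin gene, named after its values were seen, was higher than Oxt in every library. It measured 6257, 933 and 4584 TPM in obesogenic libraries, against 619, 351 and 2038 TPM in controls, which overlap (limma adjusted p = 0.468). Vip, a peptide of the suprachiasmatic nucleus named after its values were seen, had another order of libraries, with 204, 48.4 and 4.38 TPM in obesogenic libraries 1, 2 and 3, against 6.97, 2.90 and 5.63 TPM in controls. Vip was therefore lowest in the obesogenic library in which Pmch was highest.

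The pituitary also makes Pomc, and its hormone genes were present in some libraries. The 10 pituitary genes listed summed to 452, 27.6 and 112 TPM in obesogenic libraries 1, 2 and 3, against 306, 1.80 and 6.13 TPM in control libraries 1, 2 and 3. Most of this in the obesogenic libraries and in control library 1 was Cga, the shared subunit of glycoprotein hormones, at 378, 18.7 and 76.3 TPM in obesogenic libraries and 258, 0 and 2.90 TPM in controls. Pomc, as given above, measured 332, 35.9 and 547 TPM in obesogenic libraries, against 6.63, 2.57 and 4.22 TPM in controls. Tbx19, the factor of the pituitary cells that make ACTH, was listed at 0, 0.119 and 1.06 TPM in obesogenic libraries and at 0 in all 3 controls. Of the 4 pituitary genes tested, 0 passed (limma, lowest adjusted p = 0.638, and 0 at an unadjusted p under 0.05). The part of pituitary RNA in the Pomc values was not tested.

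Meningeal genes had lower medians in all 3 obesogenic libraries than in the controls, and glial genes in obesogenic libraries 2 and 3. The median over 10 glial genes was 0.059, -0.58 and -0.85 in obesogenic libraries 1, 2 and 3, relative to the control mean. The median over 8 meningeal genes was -1.37, -1.58 and -1.50 in the same libraries. In neither list did a gene pass the test (limma, lowest adjusted p = 0.42 and 0.119), with 1 glial and 8 meningeal genes at an unadjusted p under 0.05. Without obesogenic library 2, 5 of the 8 meningeal genes passed in the lower direction, beside 1.25% of all genes tested. In the meninges the obesogenic libraries lay close together, unlike in the feeding peptide and neuron lists. Of 5 ependymal genes 0 passed (limma, lowest adjusted p = 0.519, and 0 at an unadjusted p under 0.05). Of 7 genes of retinal ganglion cells 3 were tested and 0 passed (limma, lowest adjusted p = 0.507, and 0 at an unadjusted p under 0.05), and of 6 photoreceptor genes 0 passed the filter. The part of these lists in the feeding peptide levels was not tested.

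**Figure D4:**
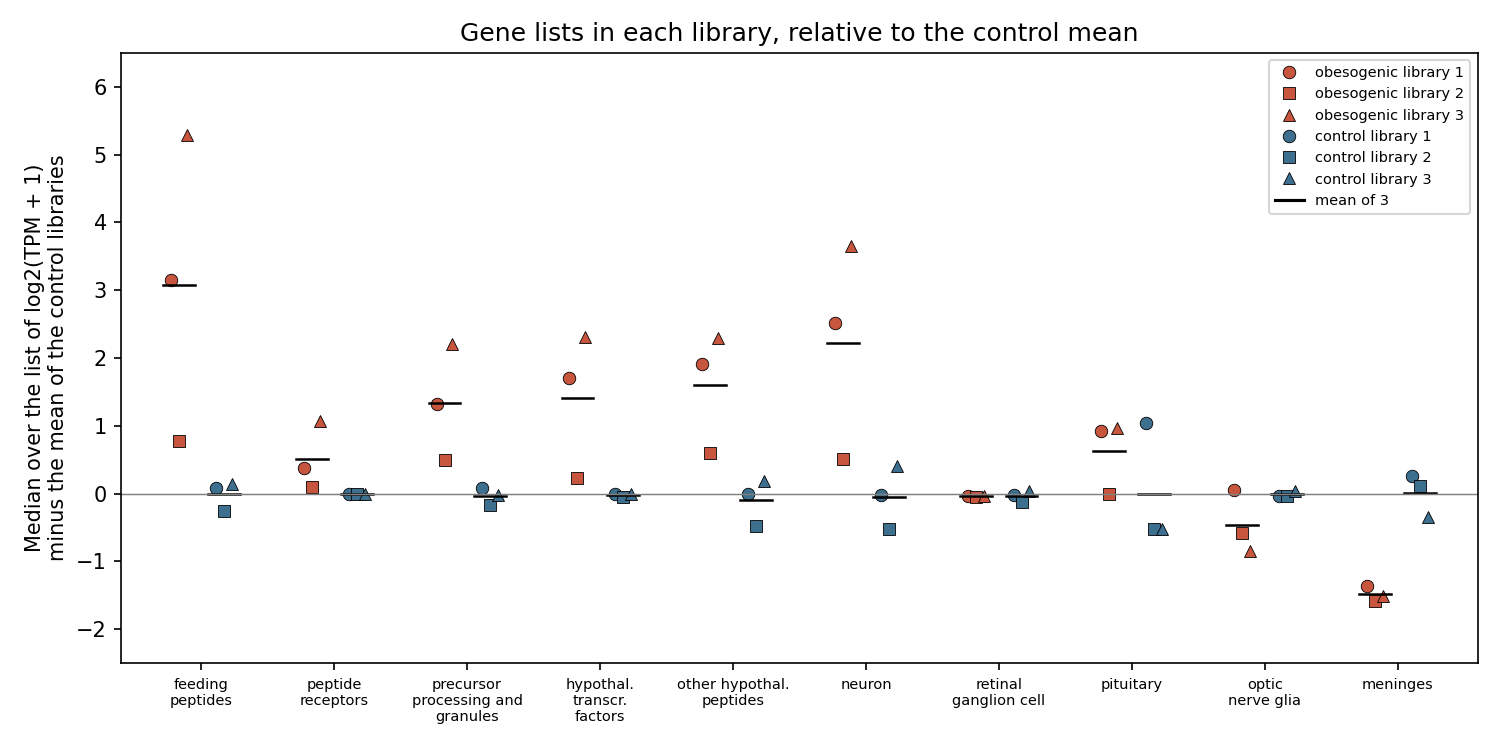
Median over each gene list of log2(TPM + 1) minus the mean of the control libraries, for each obesogenic (red, left) and control (blue, right) library, with black bars for the mean of 3. The feeding peptide list lay at 3.15, 0.77 and 5.30 in obesogenic libraries 1, 2 and 3 and the neuron list at 2.51, 0.51 and 3.66, while the meningeal list lay between -1.58 and -1.37.

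The genes whose profile over the 6 libraries was most like those of Npy and Pomc were the same 5. Likeness was the root mean square difference of log2(TPM + 1) after subtracting each gene's control mean, over 6 libraries that share the diet contrast, with the 10 feeding peptide genes left out. For Npy it was 0.77 for Sst, 1.40 for Crmp1, 1.46 for Cited1, 1.52 for Arhgap36 and 1.58 for Irs4. For Pomc it was 0.71 for Sst, 1.15 for Cited1, 1.23 for Irs4, 1.27 for Arhgap36 and 1.32 for Crmp1. Npy and Pomc differed from each other by 0.82, so only Sst was nearer to either than they were to each other. Irs4, an insulin receptor substrate, measured 24.4, 3.93 and 43.8 TPM in obesogenic libraries, against 1.14, 0.112 and 0.684 TPM in controls (limma adjusted p = 0.236). Cited1, a transcriptional coregulator, measured 57.7, 18.7 and 132 TPM in obesogenic libraries, against 4.33, 2.37 and 2.88 TPM in controls (limma adjusted p = 0.162). Among the other 6 feeding peptide genes that passed the filter, Cartpt was nearest to both, at 1.47 from Npy and 1.26 from Pomc, and Pmch and Trh were farthest, at 2.62 and 2.60 from Npy and 2.21 and 2.37 from Pomc.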

How the data were processed

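Poly(A) RNA of optic nerve was sequenced in 3 obesogenic and 3 control libraries, with the NucleoSpin RNA Plus XS and SMART-Seq mRNA kits per the labels' protocols. The authors deposited TPM per transcript. Among the tools in the submitters' processing notes are STAR 2.7.9a, featureCounts 2.0.3, Subread and DRAGEN, with no role stated. For the genome build and annotation the sources used here name nothing. Values of 415 transcripts that stood on several lines were taken once, and TPM were summed per gene. Listed TPM added up to 788456 to 832193 per library. TPM keep no depth, so no counting interval was computed, and a 0 means only that a gene was listed at 0.

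A gene was tested if it reached 1 TPM in 3 or more libraries, which 14364 did. The test was limma 3.58.1 (R 4.3.3; lmFit, then eBayes with a trend) on log2(TPM + 1), obesogenic minus control, two-sided. Benjamini-Hochberg adjustment covered every gene tested, and 0.05 was the threshold. The procedure was tested on simulated data. Of each pathway list, the text names up to 4 tested genes of smallest p and any past the threshold. For Npy and for Pomc it names the 5 genes of nearest profile. The feeding peptide genes and all lists were chosen with earlier results of these data known. Sequences come from RefSeq (GRCm38.p6) and GENCODE M21. Alternatives are given in the closing section.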

Additional observations from a re-analysis of the deposited data

How the results depend on the processing

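Besides Agrp, no feeding peptide gene changed the sign of its diet difference under other pseudocounts, other scalings, 1 transcript per gene or with any library left out. Agrp, near 0 throughout, had a log2 difference of -0.077 as reported, 0.083 with the most abundant transcript, and from -0.24 to 0.044 with 1 library left out (0.0040 without obesogenic library 1 or 2, 0.044 without control library 1). It was 0.13 without obesogenic library 2 and control library 1 together. The number of feeding peptide genes above every control was 6 as reported, 6 to 8 with a library left out, and 3 as a ratio to Snap25 or to Gad2. With a library left out the share over all genes was not computed, so nothing is read from the higher counts. The ratios and the joint removal of 2 libraries were chosen after seeing the data. The mean ratio of stimulating to suppressing peptides in obesogenic libraries was 1.71 with the most abundant transcript, against 1.06 as reported, since that setting keeps 1 transcript of Pomc and of Cartpt.

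Over all genes, the fit called 0 higher and 1 lower. Leaving out a library gave 0 to 735 higher and 0 to 179 lower. The high ends came without obesogenic library 2, and each of the other 5 removals gave 0 lower. Without control library 2 the 1 higher gene was Rpsa-ps10. In the 5 pathway lists (receptors, hormone sensing, precursor processing, transcription factors and other peptides) 0 genes passed higher, and 0 to 19 with a library left out. The 19 came without obesogenic library 2, and 11 of them were at 1 TPM or more in all 3 controls. Without the filter, 0 genes passed in either direction. With the sample number as a replicate block, 1 gene passed higher (Npy, chosen for its diet difference) and 0 lower. Same-numbered libraries deviated together with correlations of 0.0079, 0.18 and 0.13, and obesogenic library 1 correlated best with control library 3, so the numbers were not taken as pairs. Rescaling without immunoglobulin genes moved the median log2 change of all genes to 0.17, against 0.0785 as deposited. The cause of these differences was not tested. Agrp values lack Agrp-201, and the lack of depth limits what can be said of Agrp and Crh.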
